A study of Mus musculus with 6 samples.

Results

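The 10 genes described here encode enzymes of the middle and lower part of glycolysis, from glucose-phosphate isomerase to pyruvate kinase. Phosphofructokinase, which acts between that isomerase and aldolase, is not among them. The 10 were taken by name from the 46983 genes in the deposited table: *Gpi1*, *Aldoa*, *Aldoc*, *Tpi1*, *Gapdh*, *Pgk1*, *Pgam1*, *Eno1*, *Eno2* and *Pkm*. The rule names the genes and uses no measured value, although the members were chosen with earlier results of these data known. All 10 passed the filter on low values that left 13312 genes for testing. Bulk RNA-seq was performed on splenic B cells of C57BL/6 mice, with 3 wild-type (WT) and 3 *Hif1a* knockout (KO) libraries. *Hif1a* KO cells came from Hif1a f/f mice with Mb1-cre, which is driven by *Cd79a* and acts throughout the B lineage. WT cells came from littermates that carried either cre with 1 floxed allele or both floxed alleles but no cre, and which of these a given library had is not recorded in the labels. All 6 cultures were given TGF-β, IL-5 and BAFF, each at 10 ng/ml, together with 5 μg/ml of LPS, a mixture that activates B cells and directs them to switch to IgA, and all were collected on day 3. Nothing in the labels says that the libraries of a group came from separate animals, so p-values measure the spread between these libraries, which may be technical.

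Glycolysis splits glucose into pyruvate in the cytosol. Its middle steps convert glucose phosphate to triose phosphates, and its lower steps oxidise these and yield ATP and pyruvate. HIF-1, whose oxygen-regulated subunit is encoded by *Hif1a*, binds short DNA elements with the core ACGTG or GCGTG near many glycolytic genes and is a textbook activator of the pathway. Activated B cells take up glucose and run glycolysis at a high rate. *Aldoa*, *Eno1* and *Pkm* are the forms used in most dividing cells, whereas *Aldoc* and *Eno2* are best known from the nervous system.

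The libraries held 25.0 to 37.2 M counted reads, as recovered from the steps of the FPKM values. B-cell markers were expressed in every group (8 of 8 at a mean of at least 0.5 FPKM). They summed to 3045 to 3917 FPKM in WT and 3060 to 4119 FPKM in KO, and 1 of 8 had a lower KO mean. That marker was *Cd79a*, which drives the cre, at 1203, 739.1 and 779.0 FPKM in WT and 498.0, 1074 and 610.7 FPKM in KO. The first principal component (54.7% of the variance) set WT replicates 2 and 3 apart from the other 4 libraries, WT replicate 1 included, and the second (16.7%) set KO replicate 2 apart. *Hif1a* itself was at 36.5, 49.8 and 45.8 FPKM in WT and 46.5, 45.6 and 52.8 FPKM in KO (log2 fold change 0.14 ± 0.12 SE, unadjusted p = 0.300 in limma's fit across genes), and a value for the whole gene cannot show whether the floxed part was removed. Macrophage and monocyte markers summed to 73.4, 170.7 and 119.0 FPKM in WT and to 66.6 to 78.6 FPKM in KO. Of these 12 markers 11 had a lower mean in KO, and none was at 0 in every library. Erythroid markers summed to 3.05, 16.2 and 13.5 FPKM in WT and to 2.91 to 4.72 FPKM in KO (6 of 6 with a lower KO mean). Plasma-cell markers summed to 715.4, 429.4 and 398.8 FPKM in WT and to 681.2, 505.2 and 905.9 FPKM in KO (1 of 6 with a lower KO mean). The part of these markers in the results was not tested. Neutrophil markers summed to 37.6 FPKM in WT replicate 1 and to at most 0.528 FPKM elsewhere. In bulk RNA, fewer cells of a type and less RNA per cell cannot be told apart.

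The windows around the annotated start sites were read first, because the core of the HIF-1 element can be looked for directly in them. RefSeq windows (GRCm38.p6, 300 bases each, mostly before the start) were at hand for all 10 genes, 16 windows in all. A match to ACGTG or GCGTG on either strand occurred in 7 of the 10 genes and 11 of their 16 windows, beside 46.7% of 27025 genes and 43.8% of 32851 windows. With ACGTG alone the counts were 6 of 10 genes and 7 of 16 windows, beside 21.8% of all genes and 19.6% of all windows. The windows of *Gpi1*, *Tpi1* and *Eno2* held neither word, and those of *Eno1* held GCGTG but not ACGTG. A match describes the letters and is not a shown binding site. *Aldoc* and *Gapdh* held ACGTG as well, but their WT and KO values overlapped. Those of *Gpi1* and *Tpi1*, with neither word, did not overlap. Whether a match goes with a lower KO level was not tested. The windows below belong to the 4 genes that held ACGTG and whose WT and KO values did not overlap. They are printed 5′ to 3′ along the gene, with each match in capitals (CACGT is ACGTG, and CACGC is GCGTG, read on the opposite strand).
Pgk1, chrX:106186850-106187149, plus strand: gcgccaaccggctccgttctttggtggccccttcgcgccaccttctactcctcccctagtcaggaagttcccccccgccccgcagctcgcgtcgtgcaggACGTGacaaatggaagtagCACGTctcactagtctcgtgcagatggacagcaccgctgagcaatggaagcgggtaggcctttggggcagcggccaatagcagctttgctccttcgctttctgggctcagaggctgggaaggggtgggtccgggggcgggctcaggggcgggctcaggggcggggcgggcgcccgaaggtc
Pkm, chr9:59656977-59657276, plus strand: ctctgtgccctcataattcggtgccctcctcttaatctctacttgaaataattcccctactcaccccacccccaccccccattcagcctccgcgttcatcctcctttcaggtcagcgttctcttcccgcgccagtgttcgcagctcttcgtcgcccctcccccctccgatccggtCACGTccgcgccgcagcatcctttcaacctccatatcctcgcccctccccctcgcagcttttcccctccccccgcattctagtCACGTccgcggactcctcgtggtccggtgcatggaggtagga
Aldoa, chr7:126799129-126799428, minus strand: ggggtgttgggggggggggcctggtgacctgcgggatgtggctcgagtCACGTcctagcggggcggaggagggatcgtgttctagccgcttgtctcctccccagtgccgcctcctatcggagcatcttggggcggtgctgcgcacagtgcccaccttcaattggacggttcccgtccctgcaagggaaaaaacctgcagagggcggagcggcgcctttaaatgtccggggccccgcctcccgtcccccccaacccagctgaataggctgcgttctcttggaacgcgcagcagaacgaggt
Pgam1, chr19:41911621-41911920, plus strand: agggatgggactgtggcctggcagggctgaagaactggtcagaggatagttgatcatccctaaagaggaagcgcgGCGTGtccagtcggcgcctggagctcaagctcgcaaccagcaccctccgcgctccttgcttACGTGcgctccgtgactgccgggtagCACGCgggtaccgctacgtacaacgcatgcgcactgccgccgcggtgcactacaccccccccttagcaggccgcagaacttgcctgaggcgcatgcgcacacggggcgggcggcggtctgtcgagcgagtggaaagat
The *Pgk1* and *Pkm* windows each held 2 copies of ACGTG. The *Aldoa* window held 1, and the *Pgam1* window held 1 copy of ACGTG and 2 of GCGTG. *Aldoa* has a second, overlapping window with the same match and *Aldoa* and *Pkm* each have a further window with none.

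Lower *Hif1a* KO than WT levels were measured for 8 of the 10 enzymes. In 7 of them, *Gpi1*, *Aldoa*, *Tpi1*, *Pgk1*, *Pgam1*, *Eno1* and *Pkm*, every KO library lay below every WT library, where 6.03% of all genes tested did so. No enzyme had all KO libraries above WT (4.06% of all genes). The median log2 fold change of the 10 was -0.24, that over all 13312 genes -0.03. At an unadjusted p below 0.05, 6 of the 10 were lower and 0 were higher, beside 4.5% and 2.48% of all genes (599 lower and 330 higher, and 476 lower and 425 higher with median-ratio scaling). Of these 6, only *Tpi1* rose above 0.05 with that scaling (unadjusted p = 0.127, limma). None passed the Benjamini-Hochberg adjusted threshold of 0.05 in limma (0 of 10), and neither did any other gene tested (0.0% of 13312). Voom on the recovered reads also called 0 of the 10. The smallest adjusted p over all genes was 0.321, and the 8 lower enzymes had one of 0.626 each. Some of them, *Pgk1*, *Pkm* and *Tpi1* among these, are labelled in a picture that the study drew from the same libraries, so their direction is not independent evidence. The paper's caption gives that picture of top differential genes a log2 fold change threshold far larger than the differences measured here. These were -0.25 for *Pgk1*, -0.29 for *Pkm* and -0.21 for *Tpi1*.

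**Figure D1:**
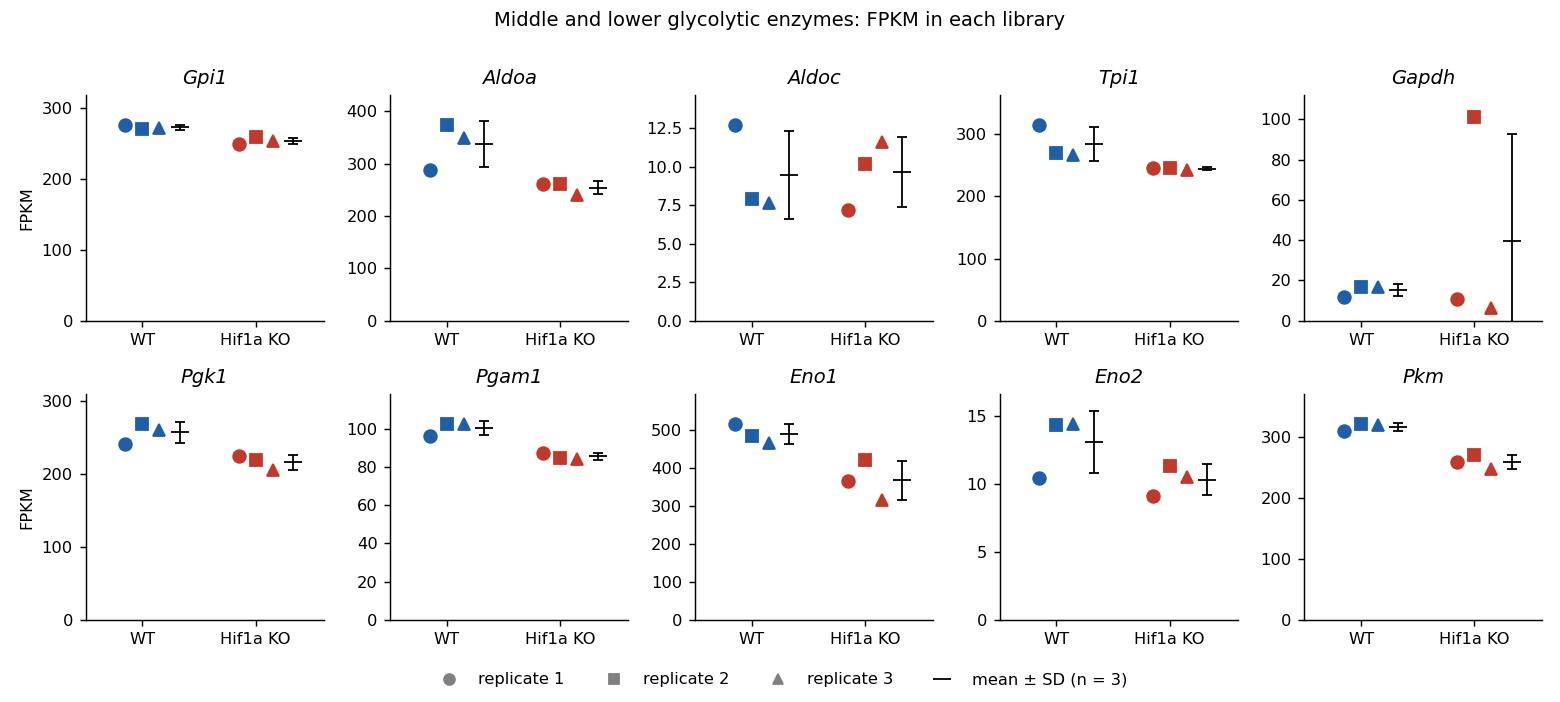
FPKM of each enzyme (y axis, starting at 0, scaled to each gene) in the 3 WT (blue) and 3 *Hif1a* KO (red) libraries, with marker shape for the replicate number and bars for mean ± SD (n = 3); the lower end of the KO bar of *Gapdh* falls below 0 and is cut. In 7 panels the blue and red points do not overlap, while *Gapdh* has 1 KO library at 101.1 FPKM.

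*Gpi1* (ENSMUSG00000036427, chr7:34201330-34230336, minus strand) encodes the isomerase that turns glucose phosphate into fructose phosphate. It was at 276.4, 269.6 and 271.7 FPKM in the WT libraries and at 249.2, 258.3 and 252.9 FPKM in the KO libraries. The groups did not overlap, yet the difference was small, 272.6 ± 3.50 against 253.5 ± 4.60 FPKM (mean ± SD, n = 3 each). Its log2 fold change was -0.10 ± 0.053 (SE), with a 95% confidence interval from -0.23 to 0.02. With median-ratio scaling the groups overlapped and the log2 fold change was -0.06.

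Aldolase cleaves fructose bisphosphate into the triose phosphates. *Aldoa* (ENSMUSG00000030695, chr7:126795234-126800751, minus strand), the form found in most tissues, was at 288.7, 374.9 and 348.8 FPKM in WT and at 261.3, 261.7 and 240.1 FPKM in KO. The KO libraries lay close together, and WT replicate 1 lay nearest to them. The KO mean differed from the WT mean by -24.6% (337.5 ± 44.2 in WT against 254.3 ± 12.3 FPKM in KO, SD over 3 libraries each). On the log2 scale the fold change was -0.40 ± 0.10 (SE; unadjusted p = 0.00675, limma).

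*Aldoc* (ENSMUSG00000017390, chr11:78322968-78327781, plus strand), the aldolase best known from brain, was far less abundant. Its WT values of 12.7, 7.91 and 7.67 FPKM and its KO values of 7.20, 10.2 and 11.6 FPKM overlapped, although the highest library was WT and the lowest KO. Its log2 fold change was 0.04, with an interval from -0.50 to 0.58, so a change of either sign is within the error. These values rest on 209 to 550 reads per library.

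*Tpi1* (ENSMUSG00000023456, chr6:124810586-124814296, minus strand) encodes the isomerase that interconverts the triose phosphates. It was at 315.7, 270.2 and 267.1 FPKM in WT and at 245.8, 245.7 and 242.1 FPKM in KO. The KO libraries lay close together (SD 2.08 FPKM, n = 3), and WT replicate 1 was the highest of all 6. The log2 fold change was -0.21 ± 0.078 (SE, unadjusted p = 0.0304, limma), and -0.14 without that library. With median-ratio scaling it was -0.17 (unadjusted p = 0.127, limma).

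*Gapdh* (ENSMUSG00000057666, chr6:125161715-125166467, minus strand) encodes the dehydrogenase that oxidises glyceraldehyde phosphate and is widely used as a reference gene. It was listed at 11.8, 16.9 and 16.8 FPKM in WT and at 11.0, 101.1 and 6.33 FPKM in KO. KO replicate 2 stood apart from the other 5 libraries, with 3285 counted reads where they had 179 to 495. With all libraries the log2 fold change was 0.38 ± 0.90 (SE; unadjusted p = 0.686, limma), and without KO replicate 2 it was -0.77 (unadjusted p = 0.0246, adjusted p = 0.683). The direction thus rested on a single library.

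Phosphoglycerate kinase makes the first ATP of the lower pathway. *Pgk1* (ENSMUSG00000062070, chrX:106187100-106203699, plus strand) was at 242.1, 269.4 and 260.3 FPKM in WT and at 224.4, 218.9 and 205.2 FPKM in KO. The groups were apart, with WT replicate 1 the lowest of its group. The log2 fold change was -0.25 ± 0.068 (SE; unadjusted p = 0.0082, limma).

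Phosphoglycerate mutase moves the phosphate group that enolase acts on next. *Pgam1* (ENSMUSG00000011752, chr19:41911923-41918660, plus strand) was at 96.3, 102.7 and 102.4 FPKM in WT and at 87.5, 84.8 and 84.4 FPKM in KO. Both groups were tight (SD 3.65 and 1.70 FPKM, n = 3 each) and did not overlap. The log2 fold change was -0.23 ± 0.057 (SE; unadjusted p = 0.00515, limma).

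Enolase forms phosphoenolpyruvate. *Eno1* (ENSMUSG00000063524, chr4:150236721-150248879, plus strand), the form of most cells, was at 516.9, 484.5 and 465.1 FPKM in WT and at 367.0, 419.9 and 316.2 FPKM in KO. All KO libraries were lower, although they differed from each other by more than the WT libraries did (SD 51.9 against 26.2 FPKM, n = 3 each). Its log2 fold change of -0.42 ± 0.11 (SE; unadjusted p = 0.00681, limma) was the lowest of the 10.

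*Eno2* (ENSMUSG00000004267, chr6:124760053-124769673, minus strand), the neuronal enolase, was at 10.4, 14.3 and 14.4 FPKM in WT and at 9.07, 11.3 and 10.5 FPKM in KO. WT replicate 1 lay within the KO range and the other WT libraries above it. The log2 fold change was -0.31 ± 0.14 (SE; unadjusted p = 0.0683, limma), on 272 to 532 reads per library.

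*Pkm* (ENSMUSG00000032294, chr9:59656368-59679375, plus strand) encodes muscle-type pyruvate kinase, which makes pyruvate and the last ATP of the pathway. Its KO libraries (257.8, 269.7 and 246.5 FPKM) lay below all WT libraries (309.0, 321.4 and 319.0 FPKM). It had the smallest unadjusted p of the 10, 0.00185 in limma, at a log2 fold change of -0.29 ± 0.060 (SE). The values cover the whole gene and cannot separate its splice forms, which differ in their regulation.

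The position of WT replicate 1 was examined gene by gene, because that library resembled the KO libraries over the transcriptome. On the scale of log2(FPKM + 1) it was nearer to the KO mean than to the mean of WT replicates 2 and 3 for 77.5% of the 13312 genes, but for 3 of the 10 enzymes, *Aldoa*, *Aldoc* and *Eno2*. For *Gapdh* the KO mean was raised by KO replicate 2 (101.1 FPKM). WT replicate 1 was at 11.8 FPKM there, near KO replicate 1 (11.0) and below WT replicates 2 and 3 (16.9 and 16.8). In *Tpi1* WT replicate 1 was 0.37 above the KO mean where the other WT libraries were 0.14 above, and in *Eno1* 0.50 against 0.38. In *Pkm* the same distances were 0.26 and 0.31, in *Pgk1* 0.16 and 0.29, and in *Aldoa* 0.18 and 0.51. The summed macrophage markers of WT replicate 1, 73.4 FPKM, lay inside the KO range. *Adgre1* made up 59.8 FPKM of that sum. For 5 of the 12 markers every KO library lay below every WT library, WT replicate 1 included, beside 6.03% of all genes tested. That share covers genes at a mean of at least 0.5 FPKM, which 4 of the 12 markers reached, *Lyz2* among them. *Lyz2* was at 6.18 FPKM in WT replicate 1 against at most 3.70 in KO. The others, *Csf1r*, *Mertk*, *C1qb* and *C1qc*, were below that mean and near the floor in WT replicate 1, at 0.0153 to 0.275 FPKM.

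**Figure D2:**
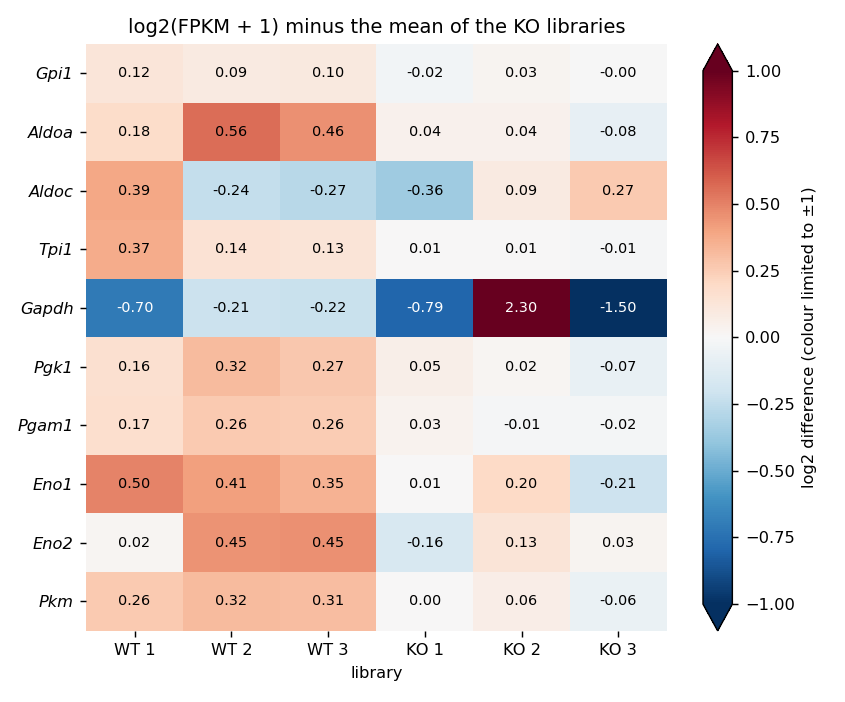
Difference of each library (columns) from the mean of the 3 KO libraries for each enzyme (rows), in log2(FPKM + 1), with red above and blue below that mean and the colour limited to ±1. WT replicate 1 is above 0 for 9 of the 10 enzymes, by 0.02 for *Eno2* up to 0.50 for *Eno1*, and below 0 for *Gapdh* (-0.70).

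Leaving WT replicate 1 out altered the calls. Limma then gave an adjusted p below 0.05 to 5 enzymes, all lower in KO, beside 5.75% of all genes. These were *Aldoa* (log2 fold change -0.51, adjusted p = 0.0132), *Pgk1* (-0.29, 0.0413), *Pgam1* (-0.26, 0.0355), *Eno2* (-0.45, 0.0460) and *Pkm* (-0.31, 0.0335). *Eno1* and *Tpi1* missed the threshold there (adjusted p = 0.102 and 0.140), although neither overlapped between groups. With all 6 libraries kept and each weighted by how well the fit described it, the same 5 and *Eno1* passed (adjusted p = 0.0429 for *Eno1*), beside 6.82% of all genes lower. WT replicate 1 then had a weight of 0.238, the lowest of the 6. Dropping or down-weighting a library that lies near the other group for most genes narrows the spread by construction.

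**Figure D3:**
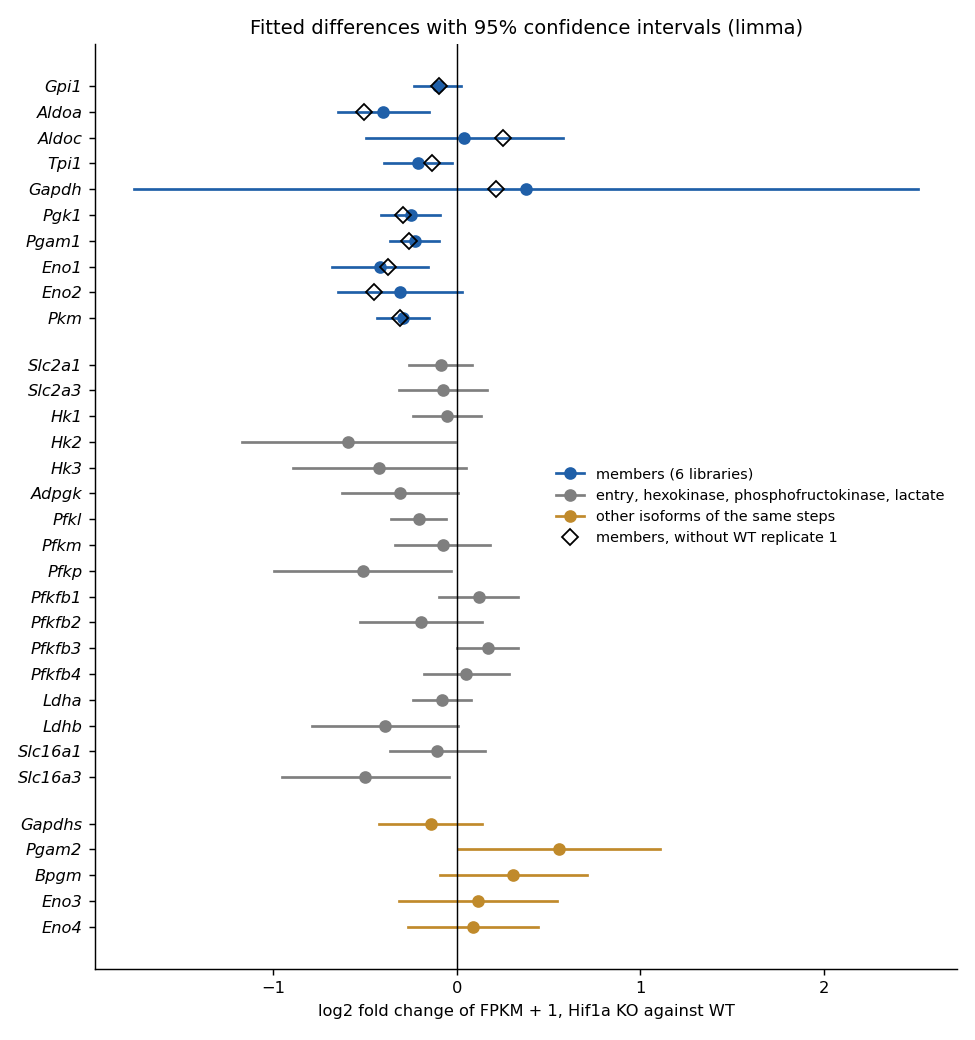
Log2 fold change of FPKM + 1 in *Hif1a* KO against WT with its 95% confidence interval from limma (n = 3 each) for the 10 enzymes (blue), for genes of glucose entry, the upper steps and lactate (grey) and for other isoforms of the same steps (ochre); open diamonds show the enzymes without WT replicate 1. The blue points of 8 enzymes lie below 0, and the interval of *Gapdh* is the widest.

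Levels of the enzymes differed widely. By mean WT FPKM, a level per length, the order was *Eno1* (488.8), *Aldoa* (337.5), *Pkm* (316.4), *Tpi1* (284.4), *Gpi1* (272.6), *Pgk1* (257.3), *Pgam1* (100.5), *Gapdh* (15.2), *Eno2* (13.1) and *Aldoc* (9.44). The ranges of neighbours overlapped between *Aldoa* and *Pkm*, *Pkm* and *Tpi1*, *Tpi1* and *Gpi1*, *Gapdh* and *Eno2*, and *Eno2* and *Aldoc*. The order also depended on the length by which reads were divided. The authors' length equalled the mean of the annotated transcripts, within 1 base, for 6 of the 10 enzymes. For *Gpi1* it was 1175 bases, the mean of 11 transcripts of 419 to 3195 bases, while for *Pkm* it was 2432 bases, the longest of its 11. Divided by the longest coding transcript instead, *Pkm* came first (316.4 on the FPKM scale), followed by *Eno1* (225.2), *Aldoa* (223.3) and *Pgk1* (203.0). *Tpi1* (127.9), *Gpi1* (111.1) and *Pgam1* (103.6) came next, and *Gapdh* (10.1), *Eno2* (5.60) and *Aldoc* (3.93) stayed last. The change of length leaves each KO to WT ratio as it was.

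The shares of the minor isoforms were compared because *Aldoa* with *Aldoc*, and *Eno1* with *Eno2*, catalyse the same step. *Aldoc* made up 4.23, 2.07 and 2.15% of the summed *Aldoa* and *Aldoc* FPKM in WT and 2.68, 3.74 and 4.61% in KO. *Eno2* made up 1.98, 2.88 and 3.01% of the summed enolases in WT and 2.41, 2.63 and 3.22% in KO. The groups overlapped in both shares, and the difference was smaller than the spread (exact two-sided permutation p = 0.3 and 0.8, where 0.1 is the smallest p that 3 against 3 libraries allow).

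Copies of these genes elsewhere in the genome bear on what the values count. Each 100-base window of the longest coding transcript (GENCODE vM21, GRCm38) was looked up in the transcripts of all other annotated genes. It was found there for 78.0% of the *Gapdh* windows, 67.0% of the *Pgk1*, 59.0% of the *Eno1* and 39.7% of the *Pgam1* windows, but for 9.82% in *Pkm*, 7.40% in *Gpi1*, 0.796% in *Tpi1* and none in *Aldoa*, *Aldoc* and *Eno2*. Windows of *Gapdh* occurred in 86 other genes, and all 900 of its coding windows occurred in at least 1. The stretch below, bases 982 to 1081 of the 1420-base transcript and within its coding part (241 to 1239), is shown because 40 other annotated genes hold it letter for letter.
Gapdh, bases 982 to 1081: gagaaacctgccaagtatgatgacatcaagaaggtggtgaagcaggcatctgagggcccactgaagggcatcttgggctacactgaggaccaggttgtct
A read from this stretch alone cannot be assigned to *Gapdh*, and the handling of such reads in the counting is not given in the sources used here. The level of *Gapdh* in every library is therefore uncertain, and those of *Pgk1*, *Eno1* and *Pgam1* may be affected as well. The share of windows does not measure how far a level may be off.

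The copies did not share the high *Gapdh* value of KO replicate 2. Of the 86 genes, 81 were in the table, and their summed level was 38.4, 38.0 and 40.7 FPKM in WT and 32.1, 37.9 and 34.7 FPKM in KO. The sum lay above *Gapdh* itself in 5 libraries and below it in KO replicate 2. The most abundant copy was the processed pseudogene *Gm7336* (mean 10.1 FPKM), followed by *Gm5559* (7.52) and *Gm12070* (4.95). The 3 listed genes that share windows with *Eno1* summed to 9.33, 10.5 and 8.54 FPKM in WT and to 6.40, 8.96 and 6.05 FPKM in KO, far below *Eno1*. Those that share windows with *Pgk1* summed to 0.900 to 1.43 FPKM over the 6 libraries. For *Pgam1* the sum was 1.65 to 2.83 FPKM, so both sums were also far below the enzyme.

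**Figure D4:**
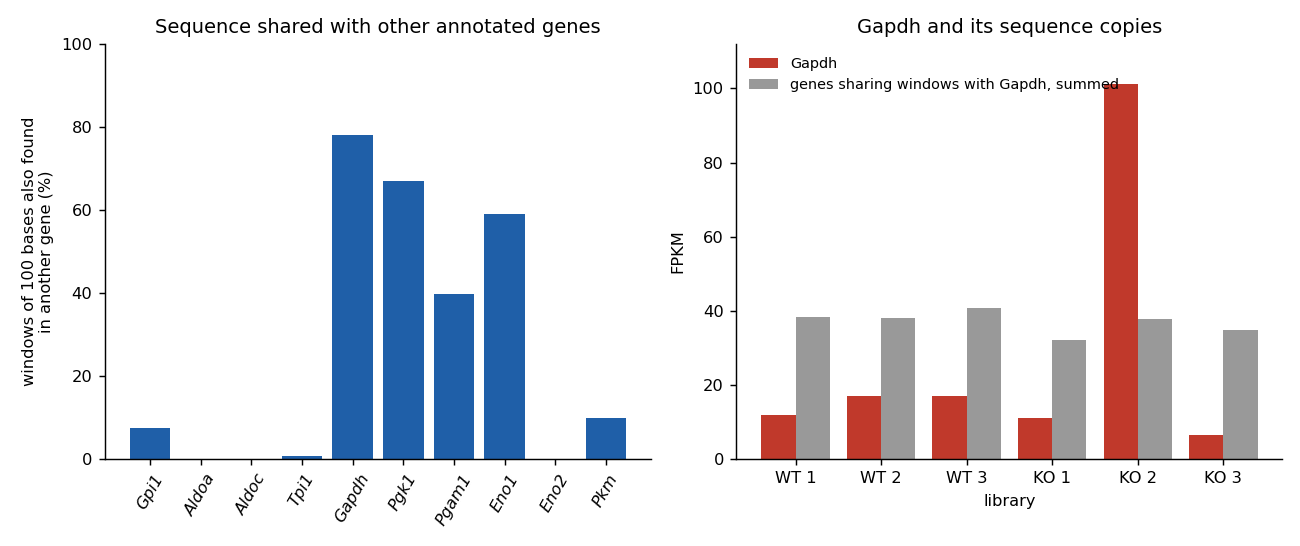
Left, share of the 100-base windows of each enzyme's longest coding transcript that also occur in another annotated gene (y axis, %). Right, FPKM of *Gapdh* (red) and the summed FPKM of the genes that share windows with it (grey) in each library, where *Gapdh* reaches 101.1 FPKM in KO replicate 2 and the copies stay between 32.1 and 40.7 FPKM in all 6.

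The enzymes varied together in part. Over the 6 libraries, Pearson's r of log2(FPKM + 1) among the 7 enzymes whose groups did not overlap ranged from 0.43 (*Aldoa* and *Tpi1*) to 0.98 (*Aldoa* and *Pgk1*), with a median of 0.83 over 21 pairs. Groups that are apart raise the r of such pairs. Over all 45 pairs the range was -0.49 to 0.98 with a median of 0.63, the lowest between *Aldoa* and *Aldoc*. These points share the contrast of WT and KO and the depth of the libraries, and the values are a description. By the same measure, each enzyme was compared with genes at a mean of at least 5 FPKM, the enzymes themselves left out. The profile most like that of *Pkm* was *Gm8822* (r = 0.998), and that of *Pgk1* was *Il15ra* (0.997). For *Eno1* it was *Pfkl* (0.989), and for *Aldoa* it was *Cfap97* (0.995). *Pfkl*, the liver-type phosphofructokinase, was the single glycolytic gene among these 4.

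The rest of the pathway was taken from a list of 19 genes of glucose entry, the upper steps, their regulators and lactate. Of these 17 passed the filter on low values and were tested. In KO 14 were lower and 3 higher (median log2 fold change -0.11), and 0 passed the adjusted threshold in limma. At an unadjusted p below 0.05, *Hk2* (log2 fold change -0.59), *Pfkl* (-0.21), *Pfkp* (-0.51) and *Slc16a3* (-0.50) were lower and *Pfkfb3* (0.17) was higher, beside 4.5% and 2.48% of all genes. The low *Slc16a3* was at -0.99 with a pseudocount of 0.1 and at -1.17 with voom. Groups did not overlap for 5 genes, lower in *Hk3*, *Pfkl*, *Ldha* and *Ldhb* and higher in *Pfkfb3*, beside 6.03% and 4.06% of all genes. Of these, *Hk3* (0.209 to 1.33 FPKM) and *Ldhb* (0.481 to 1.59 FPKM) were low, near the filter. The difference in *Ldha* was small (log2 fold change -0.08, unadjusted p = 0.265, limma). WT replicate 1 was nearer to the KO mean for 12 of the 17, beside 77.5% of all genes. Without it *Hk2*, *Pfkp* and *Adpgk* passed the threshold as lower, beside 5.75% of all genes.

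Other isoforms of the same steps were also followed, from a list of 8 of which 5 passed the filter on low values. The list includes *Bpgm*, although it encodes bisphosphoglycerate mutase, whose main reaction is a side branch of the pathway. Of the 5 tested, *Gapdhs*, a dehydrogenase of sperm, was lower in KO and *Pgam2*, *Bpgm*, *Eno3* and *Eno4* were higher, with a median log2 fold change of 0.12. None passed the adjusted threshold (0 of 5), and 1, the muscle mutase *Pgam2* (log2 fold change 0.56), had an unadjusted p below 0.05. All 5 overlapped between groups, and in all 5 WT replicate 1 was nearer to the KO mean. Without that library *Pgam2* (log2 fold change 0.84) and *Bpgm* passed the threshold as higher, beside 3.64% of all genes. Markers of neurons and astrocytes, the cells best known for *Eno2* and *Aldoc*, summed to 4.13 to 7.53 FPKM in WT and 7.45 to 8.78 FPKM in KO. *Map2* made up most of each sum (6.56 of 7.53 FPKM in WT replicate 1), only 1 of the 5 markers reached a mean of 0.5 FPKM, and *Rbfox3* was at 0 in every KO library.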

How the data were processed

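The authors cultured sorted follicular B cells, aligned filtered paired-end reads to mm10 with TopHat 2.0.12, counted reads per gene with HTSeq 0.6.1 and deposited FPKM, 1 value per gene and library. The annotation release, strand option and handling of reads with several alignments are not given in the sources used here. The 6 libraries were grouped by their labels, and no pair was identical (0 pairs).

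Gene IDs were matched to GENCODE vM21 (46488 of 46983 had a symbol). The value of 1 read per gene gave the depth (25.0 to 37.2 M) and whole reads for 25716 of 25717 genes above 0, within 0.02 of a whole number. Differences were fitted with limma 3.58.1 in R 4.3.3 (trend, no covariates) on log2(FPKM + 1), so fold changes of low genes are understated, for genes with a mean of at least 0.5 FPKM, and Benjamini-Hochberg adjusted over all 13312. The script was tested on simulated data. Shares were compared with exact permutation tests (scipy 1.17.1).

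Named genes are the 10 enzymes, the genes of the lists with an unadjusted p under 0.05 or groups that do not overlap, and those most like an enzyme. *Adpgk*, *Bpgm* and the *Gapdh* copies were named after their values were seen. Members and lists were chosen with earlier results of these data known. The authors' length of a gene was inferred, as a length at which its values became whole reads in all 6 libraries. The total length of its annotated exons was tried first, then lengths from short to long. The reads follow from that length. For *Pgam1* it was 1831 bases, above the longest annotated transcript of 1775. No protein table was used.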

Additional observations from a re-analysis of the deposited data

How the results depend on the processing

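The fit was repeated with a pseudocount of 0.1, with every gene above 0 or a mean of at least 5 FPKM, median-ratio scaling, quantile normalization, limma with robust moderation or without trend, a block for the replicate number, voom on the recovered reads, library weights and each library left out in turn. Over all 17 settings, main included, *Gpi1*, *Aldoa*, *Tpi1*, *Pgk1*, *Pgam1*, *Eno1*, *Eno2* and *Pkm* stayed below 0. The median log2 fold change of the 10 enzymes was -0.19 with median-ratio scaling, which left 6 enzymes without overlap (*Gpi1* then overlapped), and -0.29 to -0.22 with 1 library left out, when 7 to 8 did not overlap. Enzymes called numbered 6 with library weights and 0 to 5 with 1 library left out, other glycolysis genes 3 and 0 to 3, and other isoforms 2 and 0 to 2. In each case only leaving out WT replicate 1 gave any call among the single libraries left out, and no other setting than these gave one.

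*Aldoc* turned below 0 without WT replicate 2 (-0.06), WT replicate 3 (-0.08), KO replicate 2 (-0.00485) or KO replicate 3 (-0.092), within -0.092 to 0.26 over the libraries left out. *Gapdh* turned to -0.77 without KO replicate 2, within -0.77 to 1.13. The difference of the *Eno2* share turned to -0.191 percentage points without WT replicate 1 and to -0.102 without KO replicate 3, within -0.191 to 0.325, and that of *Aldoc* ranged from 0.396 to 1.57. The cause was not tested.

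Same-numbered WT and KO libraries did not deviate together (r = -0.0987, 0.139 and -0.276), so the numbers were not taken as pairs. With the replicate block the median stayed at -0.24 with 0 enzymes called, and 451 genes were lower and 243 higher at an unadjusted p below 0.05, against 599 and 330 without it.

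All tests rest on 3 libraries per group. *Aldoc*, *Eno2* and, outside KO replicate 2, *Gapdh* had at most 550 reads per library.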
